A study of Mus musculus with 9 samples.

Results

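The collagens of connective tissue are the fibrillar chains and the smaller families that bind, space or surround fibrils, and the mouse hair follicle is an epithelium wrapped in a collagen-rich dermal sheath. Their mRNA was followed in 4 populations sorted by flow cytometry from mouse back skin of 30-day-old animals, at anagen VI, a late stage of hair growth. The members are the 34 genes whose symbol has the form of a collagen chain, out of 44 such symbols and 46517 gene rows in all. The 10 left out are Col4a1 to Col4a6, Col7a1, Col13a1, Col17a1 and Col18a1, chains of the basement membrane, its anchoring structures and the hemidesmosome, or close to them. Suprabasal hair bulb cells (suprabasal HB) gave 2 libraries, basal hair bulb cells (basal HB) 2, outer root sheath (ORS) 2 and the stem cells of the bulge (HFSC) 3. All 9 libraries share the strain label Lhx2-GFP (CD1), the sex label Mixed and one panel of sort markers, namely P-cadherin, Sca-1, CD34, both integrin α6 and integrin β1, and GFP. K14-H2BGFP is the line in the extraction text, which leaves the origin of GFP uncertain, and the labels give no gate for any population. The labels state neither the number of animals pooled per library nor whether replicates are different animals, so a p-value measures the spread between these samples, which may be technical.

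A collagen molecule is a triple helix of chains, which are hydroxylated and glycosylated in the endoplasmic reticulum, secreted, trimmed by procollagen proteinases and crosslinked outside the cell. Fibrillar collagens (such as types I and III) form banded fibrils, and fibril-associated collagens (such as types XII and XVI) sit on fibril surfaces or at tissue borders. Type VI builds beaded microfibrils around cells, type VIII forms short-chain networks, type XV belongs to the multiplexins of basement membrane zones, and types XXIII and XXV span the plasma membrane. In skin, most fibrillar collagen is made by dermal fibroblasts, while keratinocytes are known for basement membrane chains and for some fibril-associated and transmembrane collagens. In sorted bulk samples a lower value can mean fewer cells of a type or less RNA per cell, and these cannot be told apart.

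The promoter sequences of Col16a1, Col8a1, Col23a1 and Col3a1 are shown because these genes stand for the patterns described next. Col16a1 and Col8a1 were highest in HFSC, with replicates less than 2-fold apart in every population. Col23a1 was highest in the hair bulb. Col3a1 was the most abundant fibrillar chain in each of the 4 populations by mean TPM, with replicates that differed widely in suprabasal HB. The genes to show were chosen after their values were seen. Each sequence is the 250 bases before the RefSeq gene start on GRCm38.p6, 5′ to 3′ on the gene's strand, in lower case. The windows are chr4:130047590-130047839 on the plus strand for Col16a1, chr16:57754738-57754987 on the minus strand for Col8a1, chr11:51289670-51289919 on the plus strand for Col23a1 and chr1:45311288-45311537 on the plus strand for Col3a1. Capitals mark exact matches, on either strand, to 4 motifs: the CCAAT box (CCAAT), the TATA box (TATAAA), the GC box (GGGCGG) and the TCF/LEF motif (CTTTGAT), which do not overlap one another here.
Col16a1: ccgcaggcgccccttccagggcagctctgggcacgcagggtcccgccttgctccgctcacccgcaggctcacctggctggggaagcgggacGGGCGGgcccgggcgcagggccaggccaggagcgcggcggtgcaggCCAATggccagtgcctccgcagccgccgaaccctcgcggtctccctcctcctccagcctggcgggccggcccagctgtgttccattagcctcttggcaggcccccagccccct
Col8a1: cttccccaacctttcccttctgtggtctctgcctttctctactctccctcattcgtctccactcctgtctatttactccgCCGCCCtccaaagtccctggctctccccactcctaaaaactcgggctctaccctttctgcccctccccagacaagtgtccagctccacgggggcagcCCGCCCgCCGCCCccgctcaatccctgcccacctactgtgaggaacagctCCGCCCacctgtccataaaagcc
Col23a1: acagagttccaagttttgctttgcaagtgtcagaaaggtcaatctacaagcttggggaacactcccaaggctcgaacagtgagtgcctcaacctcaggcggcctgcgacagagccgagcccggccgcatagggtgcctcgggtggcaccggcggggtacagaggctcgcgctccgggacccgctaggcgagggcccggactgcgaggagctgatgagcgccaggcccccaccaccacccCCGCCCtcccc
Col3a1: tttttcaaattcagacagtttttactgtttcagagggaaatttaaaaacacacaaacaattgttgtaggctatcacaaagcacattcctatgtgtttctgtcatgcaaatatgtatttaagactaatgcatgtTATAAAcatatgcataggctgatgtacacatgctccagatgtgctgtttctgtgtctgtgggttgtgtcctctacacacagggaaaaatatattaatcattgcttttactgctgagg

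Col16a1 held a CCAAT box whose first base lies 113 bases before the start and a GC box at 159. Both were on the printed strand, which is that of the gene. In Col8a1 there were 4 GC boxes on the strand opposite the printed one. Col23a1 had 1 GC box, also on the opposite strand, at 11 bases before the start. Col3a1 had 1 TATA box on the printed strand at 117. The G and C content was 75.6% for Col16a1, 60.8% for Col8a1, 66.0% for Col23a1 and 35.2% for Col3a1, beside a median of 52.4% over all windows. RefSeq windows were found for 26 of the 34 members, in 28 windows. A GC box was present in 17 of these 28 windows and in 32.7% of all 32851 windows, a CCAAT box in 7 and 33.8%, a TATA box in 3 and 12.4%, and the TCF/LEF motif in 1, that of Col9a2, and 3.21%. A match describes the letters of the window only.

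Total expected counts were 45438637 to 50752545 in suprabasal HB, 60990600 to 63511683 in basal HB, 64569201 to 88596741 in ORS and 25098237 to 29902799 in HFSC, so that 1 count was worth 0.0112 to 0.0443 CPM. The HFSC libraries were the shallowest, and population and depth cannot be told apart there. CPM are counts scaled to a common library size after TMM normalisation, and every adjusted p comes from edgeR's quasi-likelihood test with Benjamini-Hochberg adjustment over 20491 genes, called when under 0.05. The 8 keratinocyte markers (among them Krt5 and Krt14) were at 1 CPM or more in every population, with summed levels of 3028 to 3083 CPM in suprabasal HB, 4688 to 5115 in basal HB, 6400 to 7781 in ORS and 14470 to 16840 in HFSC. Of these, 6 were above every other library in HFSC, the population with the highest mean for 33.9% of all genes tested. Epcam and Dsp were not. Epcam had 113 and 97.7 CPM in suprabasal HB, 54.0 and 55.9 in basal HB, 101 and 80.5 in ORS, and 70.9, 92.9 and 79.4 in HFSC. In the same order Dsp had 1203 and 1099, 1404 and 1414, 912 and 1101, and 1414, 1682 and 1659 CPM. The sum therefore does not measure the share of keratinocytes. Markers of other cell types were also measured throughout, and none was at 0 in a whole population except the T cell gene Cd3e in suprabasal HB. Melanocyte markers summed to 15410 to 15690 CPM in suprabasal HB, 905.3 to 1354 in basal HB, 76.8 to 334 in ORS and 90.4 to 155 in HFSC. Mural and smooth muscle markers summed to 105 to 165 CPM in suprabasal HB, 1207 to 1329 in basal HB, 371 to 393 in ORS and 706 to 881 in HFSC.

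Per transcript length, the 34 collagens together took 1381 and 492 TPM in suprabasal HB, 1298 and 1021 TPM in basal HB, 803 and 712 TPM in ORS, and 1575, 1132 and 1762 TPM in HFSC. The 3 main fibrillar genes Col1a1, Col1a2 and Col3a1 made up 82.0% and 76.0% of that sum in suprabasal HB, 57.2% and 54.4% in basal HB, 45.9% and 32.2% in ORS, and 41.0%, 36.9% and 49.8% in HFSC. Their share was thus higher in both suprabasal HB libraries than in all others, and the ranges overlapped between ORS and HFSC. By mean TPM, Col3a1 ranked first in suprabasal HB (324 TPM) and basal HB (408 TPM), while Col16a1, a fibril-associated chain, ranked first in ORS (245 TPM) and HFSC (517 TPM). Fibril-associated collagens summed to 59.4 and 35.4 TPM in suprabasal HB, 155 and 168.5 TPM in basal HB, 307 and 388.5 TPM in ORS, and 729.7, 567 and 661.5 TPM in HFSC. These 4 ranges did not overlap. Beaded filament (type VI) collagens were highest in basal HB, with 89.1 and 31.6 TPM in suprabasal HB, 208 and 144 TPM in basal HB, 43.8 and 18.7 TPM in ORS, and 62.6, 42.5 and 79.7 TPM in HFSC. Both basal HB libraries exceeded all others for type VI.

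**Figure D1:**
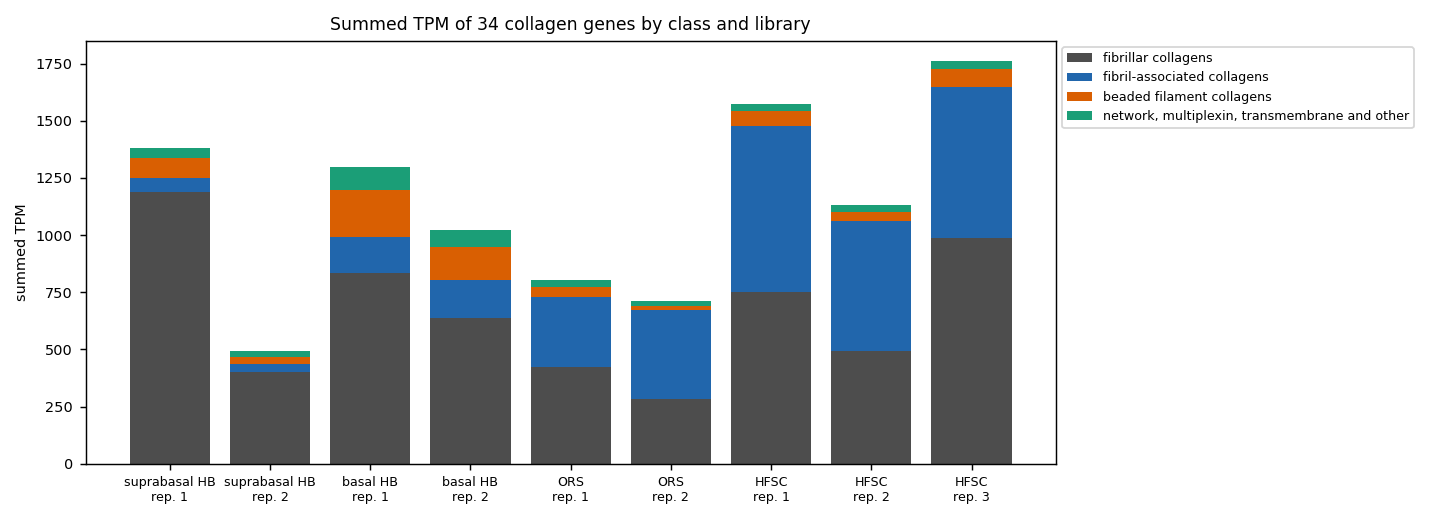
Summed TPM of the 34 collagen genes (vertical axis) in each of the 9 libraries (horizontal axis), stacked by collagen class. Fibrillar chains fill most of both suprabasal HB bars, whose totals are 1381 and 492 TPM, and fibril-associated chains take 567 to 729.7 TPM in HFSC.

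The comparisons ask which transcripts differ between compartments of the growing follicle. Of the 34 collagens, 32 passed the filter on low counts and were tested, and Col9a1 and Col10a1 were not. In ORS against HFSC, 1 of the 32 was higher and 10 were lower (34.4%), beside 41.9% of all genes, with 18.1% higher and 23.8% lower. The median log2 fold change was -0.86 for the tested collagens and -0.05 for all genes. In basal HB against ORS, 16 were higher and 6 lower (68.8%), beside 30.5% of all genes, 15.8% higher and 14.7% lower, with medians of 1.36 and -0.04. Basal HB against HFSC gave 14 higher and 7 lower (65.6%), beside 48.9% of all genes, 22.8% higher and 26.1% lower, with medians of 0.69 and -0.004. In suprabasal HB against basal HB edgeR called none higher and 16 lower (50.0%), beside 27.9% of all genes, 13.1% higher and 14.8% lower, with medians of -1.17 and 0. At an unadjusted p under 0.05, 1 was higher in suprabasal HB, Col1a1, and DESeq2 and limma on TPM also called 0 higher, while leaving out suprabasal HB replicate 2 gave 1, as did the fit with a replicate block. Library values of the 2 populations did not overlap for 17 of the 32 in ORS against HFSC (61.8% of all genes), 27 in basal HB against ORS (67.4%), 25 in basal HB against HFSC (69.7%) and 21 in suprabasal HB against basal HB (68.5%). Comparisons that use the same population share its libraries and are not independent. A joint test across the 4 populations called 25 of the 32 (78.1%), beside 65.6% of all genes.

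The highest population mean was that of suprabasal HB for 3 of the 32 tested collagens, of basal HB for 19, of ORS for 2 and of HFSC for 8. Col19a1 and Col9a2, among these 19, met the filter on low counts only through basal HB, so their place there was set by the filter. Their calls are part of the counts above. Over all genes tested suprabasal HB was highest for 25% of genes, basal HB for 20.8%, ORS for 20.3% and HFSC for 33.9%. The count of calls depends on single libraries: without HFSC replicate 1 or 3, 5 and 6 collagens were called in ORS against HFSC in place of 11. Leaving out basal HB replicate 1 gave 11 calls in basal HB against ORS, 11 in basal HB against HFSC and 9 in suprabasal HB against basal HB, and leaving out basal HB replicate 2 gave 10 in the last of these. In basal HB against ORS, leaving out ORS replicate 2 gave 12. The balance of higher and lower calls shifted where TPM replaced counts. With limma on log2(TPM + 1), 3 collagens were higher and 5 lower in ORS against HFSC, and 15 higher and 4 lower in basal HB against HFSC. Over all genes that setting gave 5991 higher and 2756 lower in ORS against HFSC, where edgeR gave 3703 and 4873. It gave 7940 higher and 3018 lower in basal HB against HFSC (edgeR 4681 and 5345) and 1098 higher and 4269 lower in suprabasal HB against basal HB (edgeR 2679 and 3042). Upper-quartile scaling gave 5915 higher and 4418 lower genes in basal HB against HFSC.

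**Figure D2:**
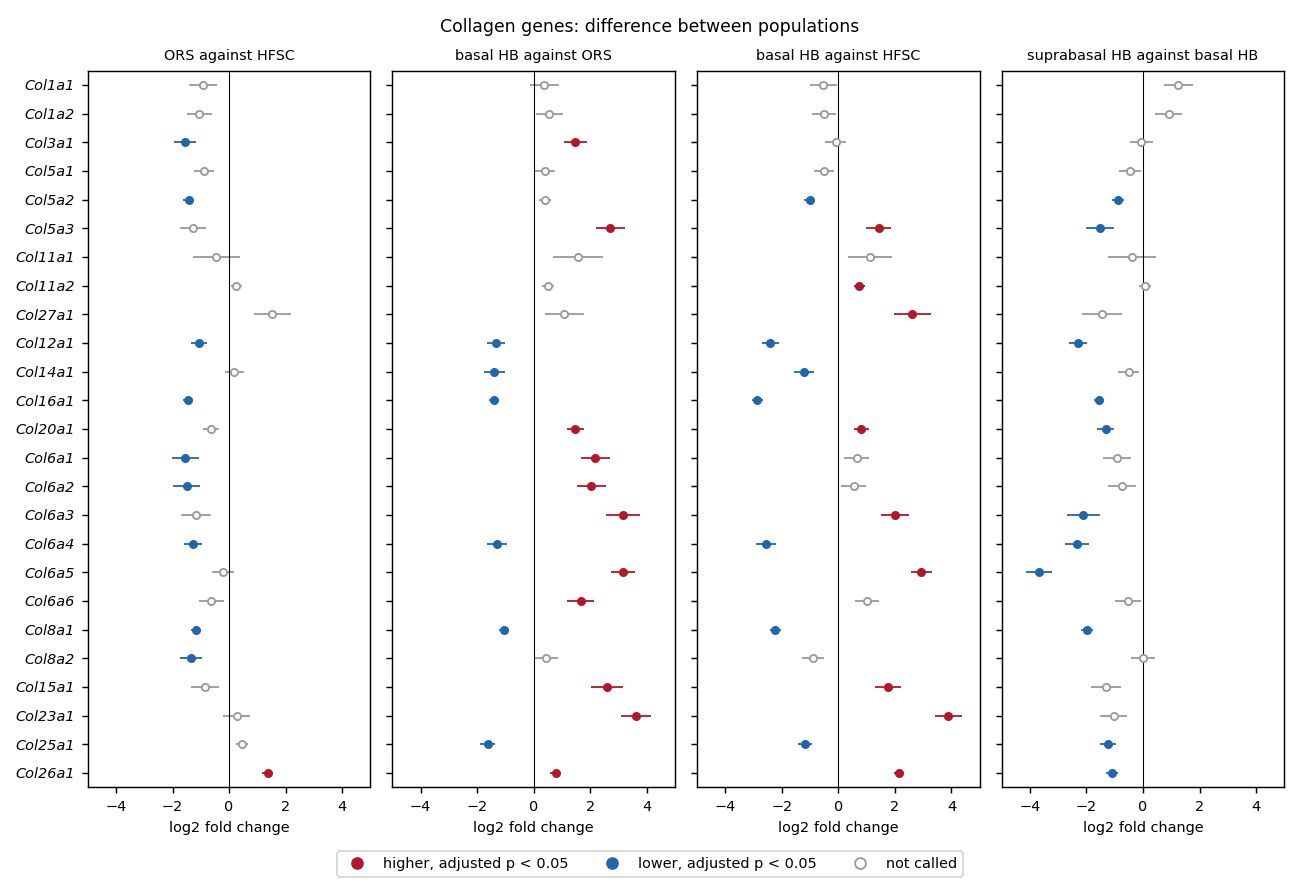
Log2 fold change (horizontal axes) of the 25 collagens with a population mean of at least 5 CPM (rows), one panel per comparison. Points are edgeR estimates with their standard errors, filled red where higher and filled blue where lower at an adjusted p under 0.05, open where not called. No point is red in suprabasal HB against basal HB, and 1 is red in ORS against HFSC.

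Type I collagen, the main fibril of dermis, is built from the chains of Col1a1 (ENSMUSG00000001506, chromosome 11, 94936224 to 94953042, plus strand) and Col1a2 (ENSMUSG00000029661, chromosome 6, 4504814 to 4541544, plus strand). Positions are those of GENCODE M21 on mm10, and values are given for the 25 collagens with a mean of at least 5 CPM in some population. Col1a1 had 1209 and 396 CPM in suprabasal HB and 401 and 272 CPM in basal HB. ORS had 323 and 194 CPM and HFSC 539.5, 296 and 626 CPM. Levels of Col1a2 were 976 and 364 CPM in suprabasal HB and 414 and 299 CPM in basal HB. They were 304 and 182 CPM in ORS and 521, 333 and 665 CPM in HFSC. Both chains were highest in suprabasal HB replicate 1, and replicate 2 of that population was within the range of the other libraries. Populations overlapped in every comparison except Col1a2 in ORS against HFSC. No comparison was called for either gene, with edgeR adjusted p of 0.111 to 0.657 for Col1a1 and 0.0860 to 0.443 for Col1a2. Markers of dermal fibroblasts, such as Dcn and Lum, were at 1 CPM or more for 17 of 17 genes in suprabasal HB, 17 in basal HB, 15 in ORS and 17 in HFSC, with no gene at 0 in any population. Their summed level was 677.5 to 994 CPM in suprabasal HB, 860.3 to 871 CPM in basal HB, 521 to 816 CPM in ORS and 633 to 822 CPM in HFSC. Single markers ran in different directions. Dcn had 485 and 340 CPM in suprabasal HB, 135 and 130.5 CPM in basal HB, 474 and 243 CPM in ORS, and 156, 179 and 198 CPM in HFSC. In the same order Pdgfrb had 7.09 and 5.86, 87.8 and 95.7, 9.67 and 6.70, and 16.1, 12.3 and 20.1 CPM. Of the 13 not counted under another list, 5 were above every other library in basal HB, 4 in HFSC, 1 in suprabasal HB and 0 in ORS. Among the rest, Lum and Dpt were above every other library in HFSC and Lox in basal HB, while Dcn was so in no population. By mean, basal HB was highest for 20.8% of all genes tested and HFSC for 33.9%. The part of dermal fibroblasts in the type I values was not tested. Type III collagen, of pliable tissues such as skin and vessels, is encoded by Col3a1 (ENSMUSG00000026043, chromosome 1, 45311538 to 45349706, plus strand). Col3a1 stood at 1141 and 508 CPM in suprabasal HB and at 899 and 816 CPM in basal HB. Its ORS libraries held 388 and 233 CPM and its HFSC libraries 880.1, 686 and 1192 CPM. ORS lay below every library of the other populations, which overlapped one another. Col3a1 fell by 1.57 log2 units in ORS against HFSC (SE 0.38, edgeR adjusted p = 0.0106) and rose by 1.47 log2 units in basal HB against ORS (SE 0.40, edgeR adjusted p = 0.0233). The call on Col3a1 was lost in ORS against HFSC without ORS replicate 2 (adjusted p = 0.0705) and in basal HB against ORS without basal HB replicate 1 (adjusted p = 0.102), basal HB replicate 2 (adjusted p = 0.0689) or ORS replicate 2 (adjusted p = 0.133).

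Type V collagen joins type I in mixed fibrils and limits their diameter, and Col5a1, Col5a2 and Col5a3 encode its chains. For Col5a1, suprabasal HB gave 85.3 and 30.7 CPM and basal HB 85.3 and 75.3 CPM. ORS gave 60.3 and 62.7 CPM and HFSC 120.4, 88.4 and 131 CPM. HFSC was above ORS and basal HB, and suprabasal HB overlapped basal HB and ORS. Col5a1 passed no comparison (edgeR adjusted p of 0.0780 to 0.522). Col5a2 had 100.4 and 61.6 CPM in suprabasal HB and 144 and 155 CPM in basal HB. ORS had 109.9 and 116 CPM and HFSC 313, 264 and 332 CPM. The 3 HFSC libraries were above all others and both suprabasal HB libraries below all others. Col5a2 fell by 1.42 log2 units in ORS against HFSC (SE 0.20, edgeR adjusted p = 0.000672), by 1.02 log2 units in basal HB against HFSC (SE 0.19, edgeR adjusted p = 0.00248) and by 0.88 log2 units in suprabasal HB against basal HB (SE 0.21, edgeR adjusted p = 0.0136). The call on Col5a2 was lost in suprabasal HB against basal HB without basal HB replicate 1 (adjusted p = 0.0557) or basal HB replicate 2 (adjusted p = 0.0728). Levels of Col5a3 were 20.3 and 8.26 CPM in suprabasal HB and 40.8 and 41.5 CPM in basal HB. They were 8.52 and 4.09 CPM in ORS and 15.6, 9.57 and 20.8 CPM in HFSC. Basal HB stood above all other libraries, its own 2 being nearly equal, and the others overlapped except for ORS below HFSC. Col5a3 rose by 2.71 log2 units in basal HB against ORS (SE 0.51, edgeR adjusted p = 0.00393), by 1.42 log2 units in basal HB against HFSC (SE 0.43, edgeR adjusted p = 0.0237) and fell by 1.53 log2 units in suprabasal HB against basal HB (SE 0.49, edgeR adjusted p = 0.0459). The call on Col5a3 was lost in basal HB against HFSC without basal HB replicate 1 (adjusted p = 0.0872) or basal HB replicate 2 (adjusted p = 0.0864) and in suprabasal HB against basal HB without suprabasal HB replicate 2 (adjusted p = 0.204), basal HB replicate 1 (adjusted p = 0.147), basal HB replicate 2 (adjusted p = 0.137), HFSC replicate 1 (adjusted p = 0.0661) or HFSC replicate 3 (adjusted p = 0.0514). In suprabasal HB against basal HB the Col5a3 estimate was -2.31 log2 units without suprabasal HB replicate 1.

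Type XI chains start thin fibrils in cartilage and some other tissues. Col11a1 had 12.0 and 2.89 CPM in suprabasal HB and 14.6 and 5.06 CPM in basal HB. ORS had 5.76 and 0.927 CPM and HFSC 3.59, 5.71 and 4.29 CPM. Replicates were far apart in suprabasal HB, basal HB and ORS, the populations overlapped in every comparison, and none passed (edgeR adjusted p of 0.229 to 0.776). Col11a2 stood at 9.71 and 8.79 CPM in suprabasal HB and at 8.70 and 8.92 CPM in basal HB. Its ORS libraries held 5.61 and 6.93 CPM and its HFSC libraries 6.38, 4.25 and 5.12 CPM. Both bulb populations were above the ORS and HFSC libraries. Col11a2 rose by 0.74 log2 units in basal HB against HFSC (SE 0.19, edgeR adjusted p = 0.0122). The call on Col11a2 was lost in basal HB against HFSC without basal HB replicate 1 (adjusted p = 0.0601) or basal HB replicate 2 (adjusted p = 0.0661). Col27a1 encodes a fibrillar chain known from developing cartilage. For Col27a1, suprabasal HB gave 5.52 and 2.04 CPM and basal HB 11.4 and 9.41 CPM. ORS gave 8.41 and 1.49 CPM and HFSC 1.41, 1.91 and 1.82 CPM. Basal HB was highest, ORS replicate 1 came next and ORS replicate 2 was close to HFSC. Col27a1 rose by 2.61 log2 units in basal HB against HFSC (SE 0.65, edgeR adjusted p = 0.0102). The call on Col27a1 was lost in basal HB against HFSC without basal HB replicate 1 (adjusted p = 0.0506).

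**Figure D3:**
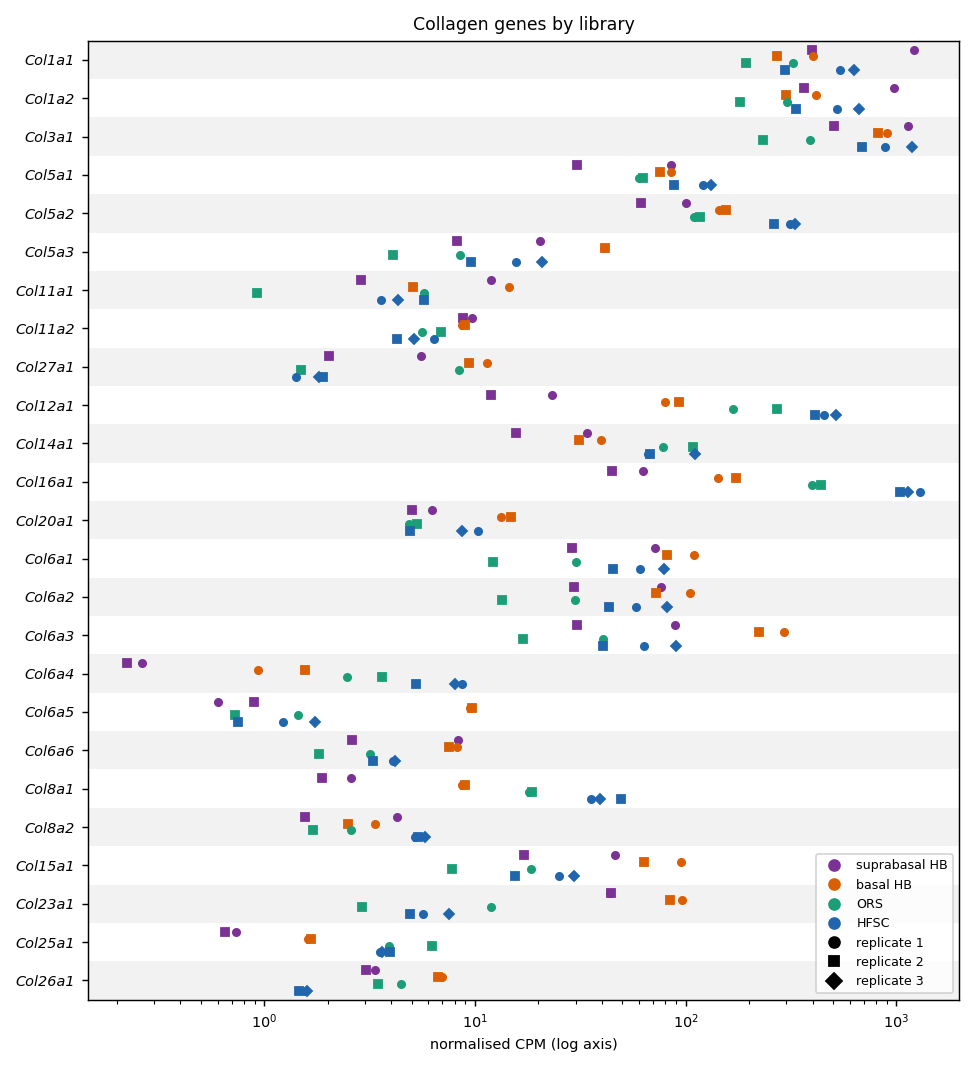
Normalised CPM (horizontal log axis) of the 25 collagens shown (rows, by class) in every library. Colours mark suprabasal HB, basal HB, ORS and HFSC, and symbols mark replicates 1 to 3. Col16a1, at 1039 to 1292 CPM in HFSC and 44.8 to 62.5 CPM in suprabasal HB, and Col8a1 separate into 4 groups without overlap. The symbols of Col1a1, Col1a2 and Col11a1 are spread within suprabasal HB.

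Among fibril-associated collagens, Col16a1 (ENSMUSG00000040690, chromosome 4, 130047840 to 130099283, plus strand) encodes a chain found in skin near the dermal-epidermal border. Col16a1 stood at 62.5 and 44.8 CPM in suprabasal HB and at 143 and 173 CPM in basal HB. Its ORS libraries held 397 and 439 CPM and its HFSC libraries 1292, 1039 and 1133 CPM. The populations were ordered from suprabasal HB at the low end through basal HB and ORS to HFSC, with no overlap at any step. Col16a1 fell by 1.47 log2 units in ORS against HFSC (SE 0.17, edgeR adjusted p = 0.000311), by 1.40 log2 units in basal HB against ORS (SE 0.18, edgeR adjusted p = 0.000743), by 2.87 log2 units in basal HB against HFSC (SE 0.19, edgeR adjusted p = 1.06e-05) and by 1.56 log2 units in suprabasal HB against basal HB (SE 0.19, edgeR adjusted p = 0.000560). None of the 17 alternatives, including each library left out, ended any of these 4 calls. Col12a1 (ENSMUSG00000032332, chromosome 9, 79598991 to 79718831, minus strand), of dense connective tissue such as tendon, had the same order. Levels of Col12a1 were 23.1 and 11.9 CPM in suprabasal HB and 80.1 and 93.3 CPM in basal HB. They were 167 and 273 CPM in ORS and 452, 412 and 519.7 CPM in HFSC. Again no neighbouring populations overlapped. Col12a1 fell by 1.07 log2 units in ORS against HFSC (SE 0.29, edgeR adjusted p = 0.0170), by 1.34 log2 units in basal HB against ORS (SE 0.31, edgeR adjusted p = 0.0107), by 2.41 log2 units in basal HB against HFSC (SE 0.31, edgeR adjusted p = 0.000280) and by 2.31 log2 units in suprabasal HB against basal HB (SE 0.32, edgeR adjusted p = 0.00125). The call on Col12a1 was lost in ORS against HFSC without ORS replicate 1 (adjusted p = 0.102), HFSC replicate 1 (adjusted p = 0.0501) or HFSC replicate 3 (adjusted p = 0.0665) and in basal HB against ORS without basal HB replicate 1 (adjusted p = 0.0882) or ORS replicate 2 (adjusted p = 0.0654).

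Col14a1 encodes the related type XIV chain, abundant in skin and tendon. Col14a1 had 33.9 and 15.7 CPM in suprabasal HB and 39.8 and 31.1 CPM in basal HB. ORS had 78.0 and 108 CPM and HFSC 66.5, 67.8 and 111 CPM. ORS and HFSC overlapped, and both were above the bulb populations, which overlapped each other. Col14a1 fell by 1.39 log2 units in basal HB against ORS (SE 0.37, edgeR adjusted p = 0.0204) and by 1.21 log2 units in basal HB against HFSC (SE 0.35, edgeR adjusted p = 0.0190). The call on Col14a1 was lost in basal HB against ORS without basal HB replicate 1 (adjusted p = 0.0718), basal HB replicate 2 (adjusted p = 0.131) or ORS replicate 2 (adjusted p = 0.0980) and in basal HB against HFSC without basal HB replicate 1 (adjusted p = 0.0622), basal HB replicate 2 (adjusted p = 0.125) or HFSC replicate 3 (adjusted p = 0.0936). Without HFSC replicate 3 the Col14a1 estimate in basal HB against HFSC was -0.79 log2 units. Col20a1 is a little-studied member of the same class. For Col20a1, suprabasal HB gave 6.22 and 5.04 CPM and basal HB 13.3 and 14.8 CPM. ORS gave 4.84 and 5.33 CPM and HFSC 10.3, 4.92 and 8.69 CPM. Basal HB was above all other libraries, which overlapped. Col20a1 rose by 1.47 log2 units in basal HB against ORS (SE 0.30, edgeR adjusted p = 0.00626), by 0.82 log2 units in basal HB against HFSC (SE 0.27, edgeR adjusted p = 0.0331) and fell by 1.32 log2 units in suprabasal HB against basal HB (SE 0.30, edgeR adjusted p = 0.0122). The call on Col20a1 was lost in basal HB against HFSC without basal HB replicate 1 (adjusted p = 0.0949) or basal HB replicate 2 (adjusted p = 0.149) and in suprabasal HB against basal HB without suprabasal HB replicate 2 (adjusted p = 0.0739), basal HB replicate 1 (adjusted p = 0.0513) or basal HB replicate 2 (adjusted p = 0.0684). The exons of Col20a1 share 79 bases with BX649560.1 on the same strand, so its count is uncertain to that extent.

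The classical type VI chains of Col6a1 (ENSMUSG00000001119, chromosome 10, 76708792 to 76726168, minus strand), Col6a2 (ENSMUSG00000020241, chromosome 10, 76595762 to 76623630, minus strand) and Col6a3 (ENSMUSG00000048126, chromosome 1, 90765923 to 90843971, minus strand) assemble into one microfibril. Col6a1 stood at 71.9 and 29.0 CPM in suprabasal HB and at 110.1 and 81.8 CPM in basal HB. Its ORS libraries held 30.2 and 12.2 CPM and its HFSC libraries 60.4, 45.3 and 78.7 CPM. Levels of Col6a2 were 76.7 and 29.4 CPM in suprabasal HB and 105 and 72.2 CPM in basal HB. They were 29.9 and 13.4 CPM in ORS and 58.2, 43.4 and 81.4 CPM in HFSC. For both genes ORS had the lowest mean, overlapping suprabasal HB, and basal HB was highest by mean, with Col6a2 overlapping suprabasal HB and HFSC. Col6a1 fell by 1.54 log2 units in ORS against HFSC (SE 0.47, edgeR adjusted p = 0.0292) and rose by 2.18 log2 units in basal HB against ORS (SE 0.51, edgeR adjusted p = 0.0114). Col6a2 fell by 1.499 log2 units in ORS against HFSC (SE 0.48, edgeR adjusted p = 0.0343) and rose by 2.03 log2 units in basal HB against ORS (SE 0.52, edgeR adjusted p = 0.0166). The call on Col6a1 was lost in ORS against HFSC without ORS replicate 2 (adjusted p = 0.146), HFSC replicate 1 (adjusted p = 0.0738) or HFSC replicate 3 (adjusted p = 0.102) and in basal HB against ORS without basal HB replicate 1 (adjusted p = 0.0655) or ORS replicate 2 (adjusted p = 0.0561). In ORS against HFSC its estimate was -2.33 log2 units without ORS replicate 1 and -1.02 without ORS replicate 2. The call on Col6a2 was lost in ORS against HFSC without ORS replicate 2 (adjusted p = 0.178), HFSC replicate 1 (adjusted p = 0.0807) or HFSC replicate 3 (adjusted p = 0.122) and in basal HB against ORS without basal HB replicate 1 (adjusted p = 0.0955) or ORS replicate 2 (adjusted p = 0.0906).

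Col6a3 encodes the longest of these chains. For Col6a3, suprabasal HB gave 88.9 and 30.6 CPM and basal HB 292 and 224 CPM. ORS gave 40.6 and 16.8 CPM and HFSC 63.5, 40.6 and 89.6 CPM. Both basal HB libraries exceeded every other library, and ORS and HFSC met at 40.6 CPM. Col6a3 rose by 3.17 log2 units in basal HB against ORS (SE 0.60, edgeR adjusted p = 0.00405), by 1.996 log2 units in basal HB against HFSC (SE 0.50, edgeR adjusted p = 0.0100) and fell by 2.11 log2 units in suprabasal HB against basal HB (SE 0.57, edgeR adjusted p = 0.0250). The call on Col6a3 was lost in basal HB against HFSC without basal HB replicate 1 (adjusted p = 0.0616) and in suprabasal HB against basal HB without suprabasal HB replicate 2 (adjusted p = 0.116), basal HB replicate 1 (adjusted p = 0.116) or basal HB replicate 2 (adjusted p = 0.0623). The TPM ratio of Col6a3 to Col6a1 was 0.839 and 0.907 in suprabasal HB, 1.81 and 1.94 in basal HB, 1.115 and 0.899 in ORS, and 0.643, 0.660 and 0.630 in HFSC. The ratio of Col6a1 to Col6a2 was between 0.892 and 1.11 over the 9 libraries. Of 9 mural and smooth muscle genes 7 were higher in both basal HB libraries than in any other library, among them Myh11, with 8.95 and 5.33 CPM in suprabasal HB, 385 and 396 CPM in basal HB, 23.0 and 6.29 CPM in ORS, and 14.5, 12.2 and 18.8 CPM in HFSC. The other two, Cspg4 and Myl9, were highest in HFSC, Cspg4 with 15.0 and 9.80 CPM in suprabasal HB, 81.4 and 94.99 CPM in basal HB, 172 and 224 CPM in ORS, and 413, 297 and 387 CPM in HFSC. Over all genes tested, basal HB had the highest mean for 20.8% and HFSC for 33.9%. The part of mural and smooth muscle cells in the level of Col6a3 was not tested.

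Col6a4, Col6a5 and Col6a6 encode chains that resemble the third chain of type VI. Col6a4 had 0.264 and 0.224 CPM in suprabasal HB and 0.931 and 1.56 CPM in basal HB. ORS had 2.48 and 3.63 CPM and HFSC 8.70, 5.23 and 8.07 CPM. It had the order of Col16a1, lowest in suprabasal HB and highest in HFSC, without overlap. Col6a4 fell by 1.26 log2 units in ORS against HFSC (SE 0.32, edgeR adjusted p = 0.0127), by 1.29 log2 units in basal HB against ORS (SE 0.35, edgeR adjusted p = 0.0214), by 2.56 log2 units in basal HB against HFSC (SE 0.34, edgeR adjusted p = 0.000381) and by 2.34 log2 units in suprabasal HB against basal HB (SE 0.42, edgeR adjusted p = 0.00395). The call on Col6a4 was lost in ORS against HFSC without ORS replicate 1 (adjusted p = 0.0782) or HFSC replicate 1 (adjusted p = 0.0515) and in basal HB against ORS without basal HB replicate 1 (adjusted p = 0.161) or ORS replicate 2 (adjusted p = 0.120). Col6a5 stood at 0.603 and 0.895 CPM in suprabasal HB and at 9.47 and 9.68 CPM in basal HB. Its ORS libraries held 1.45 and 0.726 CPM and its HFSC libraries 1.23, 0.753 and 1.75 CPM. Both basal HB libraries were far above all others. Col6a5 rose by 3.15 log2 units in basal HB against ORS (SE 0.43, edgeR adjusted p = 0.000875), by 2.93 log2 units in basal HB against HFSC (SE 0.38, edgeR adjusted p = 0.000310) and fell by 3.68 log2 units in suprabasal HB against basal HB (SE 0.45, edgeR adjusted p = 0.000617). Levels of Col6a6 were 8.28 and 2.60 CPM in suprabasal HB and 8.21 and 7.51 CPM in basal HB. They were 3.17 and 1.82 CPM in ORS and 4.10, 3.28 and 4.18 CPM in HFSC. Suprabasal HB replicate 1 was level with basal HB, and replicate 2 lay between the ORS libraries. Col6a6 rose by 1.66 log2 units in basal HB against ORS (SE 0.48, edgeR adjusted p = 0.0294). The call on Col6a6 was lost in basal HB against ORS without basal HB replicate 1 (adjusted p = 0.118), basal HB replicate 2 (adjusted p = 0.0856) or ORS replicate 2 (adjusted p = 0.155). Col6a4 shares 162 exonic bases with Gm47575 and 127 with Gm36993, and Col6a6 shares 63 with Gm38314, each on the opposite strand. The counting strand is not given in the sources used here, so those reads cannot be assigned with certainty.

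Type VIII chains form short networks, best known beneath corneal endothelium and in vessel walls. Col8a1 (ENSMUSG00000068196, chromosome 16, 57624258 to 57754737, minus strand) followed the order of Col16a1. For Col8a1, suprabasal HB gave 2.58 and 1.88 CPM and basal HB 8.71 and 8.95 CPM. ORS gave 18.0 and 18.7 CPM and HFSC 35.4, 49.4 and 39.3 CPM. No populations overlapped. On CPM + 0.1 the highest replicate exceeded the lowest 1.355-fold in suprabasal HB and 1.40-fold in HFSC, beside all-gene medians of 1.13 and 1.21. In basal HB and ORS the ratios were 1.03 and 1.04, beside 1.08 and 1.12. Col8a1 fell by 1.17 log2 units in ORS against HFSC (SE 0.17, edgeR adjusted p = 0.000859), by 1.06 log2 units in basal HB against ORS (SE 0.18, edgeR adjusted p = 0.00265), by 2.23 log2 units in basal HB against HFSC (SE 0.18, edgeR adjusted p = 2.57e-05) and by 1.98 log2 units in suprabasal HB against basal HB (SE 0.20, edgeR adjusted p = 0.000243). No alternative tried ended a call on Col8a1. Col8a2 had 4.26 and 1.57 CPM in suprabasal HB and 3.35 and 2.50 CPM in basal HB. ORS had 2.58 and 1.71 CPM and HFSC 5.19, 5.36 and 5.78 CPM. HFSC was above all other libraries, and these overlapped. Col8a2 fell by 1.34 log2 units in ORS against HFSC (SE 0.40, edgeR adjusted p = 0.0252). The call on Col8a2 was lost in ORS against HFSC without ORS replicate 2 (adjusted p = 0.136), HFSC replicate 1 (adjusted p = 0.0654), HFSC replicate 2 (adjusted p = 0.0642) or HFSC replicate 3 (adjusted p = 0.0786).

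Col15a1 (ENSMUSG00000028339, chromosome 4, 47208161 to 47313167, plus strand) encodes a multiplexin of basement membrane zones around vessels, muscle and nerve. Col15a1 stood at 46.1 and 17.0 CPM in suprabasal HB and at 94.7 and 63.2 CPM in basal HB. Its ORS libraries held 18.5 and 7.74 CPM and its HFSC libraries 25.1, 15.5 and 29.6 CPM. Both basal HB libraries were highest, and ORS overlapped HFSC. Col15a1 rose by 2.59 log2 units in basal HB against ORS (SE 0.55, edgeR adjusted p = 0.00726) and by 1.75 log2 units in basal HB against HFSC (SE 0.47, edgeR adjusted p = 0.0143). The call on Col15a1 was lost in basal HB against HFSC without basal HB replicate 1 (adjusted p = 0.101). Its exons share 14 bases with Gm12426 on the opposite strand. Col23a1 (ENSMUSG00000063564, chromosome 11, 51289920 to 51583918, plus strand) encodes a transmembrane collagen. Levels of Col23a1 were 43.7 and 44.1 CPM in suprabasal HB and 96.4 and 83.8 CPM in basal HB. They were 11.9 and 2.90 CPM in ORS and 5.69, 4.92 and 7.52 CPM in HFSC. Basal HB was highest, suprabasal HB next with nearly equal libraries, and ORS and HFSC overlapped far below them. Col23a1 rose by 3.62 log2 units in basal HB against ORS (SE 0.53, edgeR adjusted p = 0.00119) and by 3.89 log2 units in basal HB against HFSC (SE 0.47, edgeR adjusted p = 0.000208). The difference between suprabasal and basal HB, -1.04 log2 units (SE 0.48), did not pass (edgeR adjusted p = 0.141). Neither Col23a1 call was lost under any alternative, but in basal HB against ORS the estimate was 4.95 log2 units without ORS replicate 1 and 2.92 without ORS replicate 2.

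Col25a1, the other transmembrane chain, is known from neurons and from the innervation of muscle. For Col25a1, suprabasal HB gave 0.735 and 0.649 CPM and basal HB 1.61 and 1.67 CPM. ORS gave 3.93 and 6.25 CPM and HFSC 3.55, 3.94 and 3.63 CPM. ORS and HFSC overlapped and were above basal HB, with suprabasal HB lowest. Col25a1 fell by 1.63 log2 units in basal HB against ORS (SE 0.26, edgeR adjusted p = 0.00176), by 1.18 log2 units in basal HB against HFSC (SE 0.24, edgeR adjusted p = 0.00401) and by 1.24 log2 units in suprabasal HB against basal HB (SE 0.28, edgeR adjusted p = 0.0107). The call on Col25a1 was lost in suprabasal HB against basal HB without suprabasal HB replicate 2 (adjusted p = 0.0595), basal HB replicate 1 (adjusted p = 0.0527) or basal HB replicate 2 (adjusted p = 0.0558). Col26a1, a chain known from testis and ovary, was the single collagen that edgeR called higher in ORS against HFSC. At an unadjusted edgeR p under 0.05 Col27a1 was higher as well, and DESeq2 called 2 higher. Col26a1 had 3.34 and 3.04 CPM in suprabasal HB and 6.94 and 6.68 CPM in basal HB. ORS had 4.46 and 3.48 CPM and HFSC 1.56, 1.46 and 1.60 CPM. No populations overlapped, with basal HB highest and HFSC lowest. Col26a1 rose by 1.36 log2 units in ORS against HFSC (SE 0.19, edgeR adjusted p = 0.000661), by 0.78 log2 units in basal HB against ORS (SE 0.20, edgeR adjusted p = 0.0162), by 2.14 log2 units in basal HB against HFSC (SE 0.19, edgeR adjusted p = 3.86e-05) and fell by 1.09 log2 units in suprabasal HB against basal HB (SE 0.20, edgeR adjusted p = 0.00451). The call on Col26a1 was lost in basal HB against ORS without basal HB replicate 1 (adjusted p = 0.105), basal HB replicate 2 (adjusted p = 0.0777) or ORS replicate 2 (adjusted p = 0.103).

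Basal HB had the highest mean for 19 of the 32 tested collagens, among them Col6a5, Col15a1 and Col5a3, and for 20.8% of all genes tested. Of 17 dermal papilla and sheath markers 12 were above every other library in both basal HB libraries. At most 20.8% of all genes tested can meet that condition, since it implies the highest mean. Dermal papilla and sheath markers summed to 189.5 to 239 CPM in suprabasal HB, 1394 to 1421 CPM in basal HB, 519 to 658 CPM in ORS and 1792 to 2401 CPM in HFSC, with no gene at 0 in a population. Corin, a papilla marker, had 11.6 and 5.37 CPM in suprabasal HB, 85.6 and 78.0 CPM in basal HB, 6.97 and 2.425 CPM in ORS, and 18.7, 17.6 and 14.4 CPM in HFSC. In HFSC the sum was mostly Acta2, at 1356, 840.3 and 1148 CPM, and Tagln, at 871, 784 and 835 CPM, both contractile genes. Of 9 mural markers 9 were at 1 CPM or more in basal HB and 8 in each of the others, and of 5 adipocyte markers 4 were in basal HB and 1 in each of the others. The part of such cells in the collagen values was not tested.

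The remaining 9 collagens stayed under 5 CPM in every population and rest on few reads. Col2a1, the main cartilage collagen, had 21 and 23 expected counts in suprabasal HB, 106 and 96 in basal HB, 17 and 24 in ORS, and 8, 5 and 6 in HFSC. Both basal HB libraries were above all others. Col2a1 rose by 2.50 log2 units in basal HB against ORS (SE 0.32, edgeR adjusted p = 0.000641), by 2.59 log2 units in basal HB against HFSC (SE 0.31, edgeR adjusted p = 0.000199) and fell by 1.71 log2 units in suprabasal HB against basal HB (SE 0.31, edgeR adjusted p = 0.00451). Col28a1, a chain known from peripheral nerve, had 6 and 6 counts in suprabasal HB, 141 and 121 in basal HB, 17 and 2 in ORS, and 6, 7 and 15 in HFSC. Basal HB again exceeded all other libraries. Col28a1 rose by 3.88 log2 units in basal HB against ORS (SE 0.76, edgeR adjusted p = 0.00485), by 2.41 log2 units in basal HB against HFSC (SE 0.64, edgeR adjusted p = 0.0134) and fell by 3.94 log2 units in suprabasal HB against basal HB (SE 0.79, edgeR adjusted p = 0.00696). The basal HB against ORS estimate rests on few ORS counts: it was 6.28 log2 units without ORS replicate 1 and 2.93 without ORS replicate 2. The call on Col28a1 was lost in basal HB against HFSC without basal HB replicate 1 (adjusted p = 0.0740) or basal HB replicate 2 (adjusted p = 0.0510). Col24a1 encodes a fibrillar chain of bone and cornea. Col24a1 had 0.358 and 0.224 CPM in suprabasal HB and 1.79 and 1.18 CPM in basal HB. ORS had 0.443 and 0.313 CPM and HFSC 0.580, 0.886 and 0.545 CPM. Basal HB was highest and suprabasal HB overlapped ORS. Col24a1 rose by 1.97 log2 units in basal HB against ORS (SE 0.40, edgeR adjusted p = 0.00584), by 1.15 log2 units in basal HB against HFSC (SE 0.36, edgeR adjusted p = 0.0279) and fell by 2.33 log2 units in suprabasal HB against basal HB (SE 0.42, edgeR adjusted p = 0.00432). The call on Col24a1 was lost in basal HB against ORS without basal HB replicate 1 (adjusted p = 0.0631) and in basal HB against HFSC without basal HB replicate 1 (adjusted p = 0.232), HFSC replicate 1 (adjusted p = 0.0561) or HFSC replicate 3 (adjusted p = 0.0575).

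For Col19a1 and Col9a2 counts are given without a fold change, since several libraries were at or under the floor of 3 counts. Col19a1, a fibril-associated chain, had 2 and 0 counts in suprabasal HB, 22 and 22.0 in basal HB, 1 and 4.17 in ORS, and 1, 0 and 0 in HFSC. Col9a2, a chain of cartilage type IX, had 1 and 1 counts in suprabasal HB, 27 and 13 in basal HB, 4 and 3 in ORS, and 1, 1 and 1 in HFSC. Only their basal HB counts met the filter on low counts, so a high value there was a condition of being tested. Both were highest in basal HB without overlap and passed in the same 3 comparisons, with edgeR adjusted p for Col19a1 of 0.0153 in basal HB against ORS, 0.00744 in basal HB against HFSC and 0.0177 in suprabasal HB against basal HB. For Col9a2 the edgeR adjusted p was 0.0109 in basal HB against ORS, 0.00777 in basal HB against HFSC and 0.00734 in suprabasal HB against basal HB. The call on Col19a1 was lost in basal HB against ORS without basal HB replicate 1 (adjusted p = 0.0967), basal HB replicate 2 (adjusted p = 0.0910), ORS replicate 1 (adjusted p = 0.113) or ORS replicate 2 (adjusted p = 0.0663) and in suprabasal HB against basal HB without suprabasal HB replicate 2 (adjusted p = 0.115), basal HB replicate 1 (adjusted p = 0.0970) or basal HB replicate 2 (adjusted p = 0.0892). The call on Col9a2 was lost in basal HB against ORS without ORS replicate 2 (adjusted p = 0.124) and in suprabasal HB against basal HB without suprabasal HB replicate 1 (adjusted p = 0.0630) or suprabasal HB replicate 2 (adjusted p = 0.0566). Col9a3, its partner chain, had 0.622 and 0.336 CPM in suprabasal HB, 0.815 and 0.848 CPM in basal HB, 0.236 and 0.447 CPM in ORS, and 0.725, 0.6645 and 1.05 CPM in HFSC. Col9a3 fell by 1.24 log2 units in ORS against HFSC (SE 0.42, edgeR adjusted p = 0.0441). The call on Col9a3 was lost in ORS against HFSC without suprabasal HB replicate 2 (adjusted p = 0.0529), basal HB replicate 1 (adjusted p = 0.0759), basal HB replicate 2 (adjusted p = 0.0763), ORS replicate 1 (adjusted p = 0.219), HFSC replicate 1 (adjusted p = 0.0810), HFSC replicate 2 (adjusted p = 0.0603) or HFSC replicate 3 (adjusted p = 0.156). This call was also lost under 6 alternatives of scaling, filter, samples fitted or tool, with adjusted p of 0.0564 (DESeq2) to 0.399 (limma on log2(TPM + 0.1)). Its exons share 234 bases with Tcfl5 on the opposite strand. Col22a1, of tissue junctions, ranged from 0.363 to 1.02 CPM over the 9 libraries and passed no comparison. The untested Col9a1, the first chain of type IX, had 0 and 0 counts in suprabasal HB, 3 and 11 in basal HB, 0 and 1 in ORS, and 0, 0 and 4 in HFSC. Col10a1, of hypertrophic cartilage and also untested, had 8 and 5 counts in suprabasal HB, 6 and 11 in basal HB, 4 and 4 in ORS, and 3, 3 and 3 in HFSC. Counts of 3 correspond to 0.0335 to 0.133 CPM, a floor that covers counting error only.

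Of the 70 calls on members in the 4 comparisons, 32 were kept in all 17 alternatives, 1 (Col9a2 in basal HB against HFSC) in the 15 that gave it a value, 34 were lost without at least 1 library, and none reversed in sign. Besides Col9a3, upper-quartile scaling ended the call on Col6a2 in ORS against HFSC (adjusted p = 0.0510). DESeq2 ended those on Col19a1 in basal HB against ORS (adjusted p = 0.0874) and in suprabasal HB against basal HB (adjusted p = 0.0696), and on Col9a2 in basal HB against ORS (adjusted p = 0.0787). On TPM with limma, further calls were lost. In ORS against HFSC these were Col6a1, Col6a2, Col12a1 and Col8a2, with adjusted p of 0.0527 to 0.102 on log2(TPM + 1). In basal HB against ORS they were Col26a1, Col9a2, Col12a1 and Col6a4, with adjusted p of 0.0502 to 0.3655, and on log2(TPM + 0.1) also Col6a6 (adjusted p = 0.0605). In basal HB against HFSC they were Col14a1, Col5a2 and Col25a1, with adjusted p of 0.0589 to 0.0924. In suprabasal HB against basal HB they were Col25a1 and Col6a4, with adjusted p of 0.129 and 0.128, and on log2(TPM + 0.1) Col25a1 (adjusted p = 0.0638) and Col20a1 (adjusted p = 0.0556).

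The spread between replicates differed among the collagens. With a wide spread defined as at least a 2-fold ratio of the highest to the lowest replicate, on CPM + 0.1 and in populations with a mean of at least 1 CPM, 28 collagens could be rated. In suprabasal HB 14 of 22 were wide (63.6%), beside 3.04% of all genes at that level, and the median ratio was 2.455, beside 1.13 for all genes. In basal HB 1 of 28 was wide (3.57%, beside 0.567%), namely Col11a1, and the median ratio was 1.16, beside 1.08. In ORS 8 of 25 were wide (32%, beside 4.06%) and in HFSC 5 of 25 (20%, beside 4.93%). Median ratios were 1.66 in ORS and 1.58 in HFSC, beside 1.12 and 1.21 for all genes. Without HFSC replicate 2 none of 25 was wide in HFSC (beside 2% of all genes), and without replicate 3 only 1 of 24 was (beside 2.56%). At a limit of 1.5-fold 16 of 22 were wide in suprabasal HB (beside 9.58% of all genes) and 2 of 28 in basal HB (2.69%). In ORS 15 of 25 were wide at that limit (10.5%) and in HFSC 14 of 25 (15.9%). At 3-fold the counts were 3, 0, 3 and 0 in the same order. The all-gene shares at 3-fold were 0.665%, 0.187%, 1.44% and 1.63%.

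Among the collagens 11 were narrow at the 2-fold limit wherever they could be rated: Col16a1, Col8a1, Col12a1, Col5a2, Col11a2, Col26a1, Col25a1, Col6a4, Col2a1, Col24a1 and Col28a1. Of these Col12a1 was nearest the limit, at 1.93 in suprabasal HB. The last 3 of them were rated in basal HB alone, and Col25a1 and Col6a4 not in suprabasal HB. Another 17 were wide in at least 1 population, and Col5a3, Col11a1 and Col6a3 in 3. Type I collagen was in this group, with ratios for Col1a1 of 3.05 in suprabasal HB, 1.47 in basal HB, 1.66 in ORS and 2.11 in HFSC. For Col16a1 the ratios were 1.395 in suprabasal HB, 1.21 in basal HB, 1.11 in ORS and 1.24 in HFSC. For Col8a1 they were 1.355 in suprabasal HB, 1.03 in basal HB, 1.04 in ORS and 1.40 in HFSC. Col23a1 differed by population, with 1.01 in suprabasal HB, 1.15 in basal HB, 3.98 in ORS and 1.52 in HFSC. Suprabasal HB replicate 1 was above replicate 2 for 21 of 22 collagens shown at 1 CPM or more. In both basal HB and ORS replicate 1 was above replicate 2 for 15 of 25, by at least 2-fold for 1 in basal HB and for 8 in ORS. In HFSC replicate 2 was lowest for 19 of 25 and replicate 3 highest for 17. The share of all genes in each direction was not computed, so these counts and those of the markers below have no background.

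Marker genes of some other cell types deviated in the same direction and others did not. In suprabasal HB replicate 1 was above replicate 2 for 17 of 17 dermal fibroblast markers (median ratio 1.55), 11 of 12 papilla and sheath markers (2.16) and 8 of 8 mural markers (1.60), but for 5 of 9 melanocyte markers (1.05) and 3 of 8 keratinocyte markers (0.949). Replicate 1 was also above there for 6 of 6 Schwann markers (1.25). Immune markers ran the other way in suprabasal HB, with replicate 1 above for 0 of 5 (0.484). So did endothelial and blood markers, 2 of 9 (0.835), and the 1 adipocyte marker at that level (0.533). In ORS replicate 1 was above for 13 of 15 dermal fibroblast markers (1.57), 10 of 10 papilla and sheath markers (2.18), 7 of 8 mural markers (2.08), 9 of 9 melanocyte markers (5.37) and 3 of 8 keratinocyte markers (0.9085). It was also above there for 4 of 4 Schwann markers (2.85), 5 of 5 immune (1.53), 7 of 9 endothelial and blood (1.27) and the 1 adipocyte marker (2.295). In HFSC replicate 1 was above replicate 2 for 12 of 16 dermal fibroblast markers (1.21), 9 of 12 papilla and sheath (1.09) and 5 of 8 mural (1.16). It was above for 0 of 8 melanocyte (0.569) and 2 of 8 keratinocyte markers (0.861). The other HFSC counts were 4 of 5 Schwann (1.395), 4 of 5 immune (1.47) and 6 of 9 endothelial and blood markers (1.53). The 1 adipocyte marker at that level had a ratio of 1.11 in HFSC. In basal HB replicate 1 was above for 9 of 17 dermal fibroblast, 14 of 16 papilla and sheath and 0 of 9 mural markers. It was above there for 5 of 6 Schwann, 9 of 9 melanocyte and 0 of 8 keratinocyte markers. The basal HB counts were 4 of 9 for endothelial and blood, 1 of 5 for immune and 1 of 4 for adipocyte markers. A 2-fold difference was rare in basal HB: 0 of 17 dermal fibroblast, 1 of 16 papilla and sheath and 0 of 9 mural markers. It was met there by 0 of 6 Schwann and 0 of 9 melanocyte markers. In suprabasal HB this limit was met by 3 of 17 dermal fibroblast, 7 of 12 papilla and sheath and 0 of 8 mural markers. In ORS these counts were 4 of 15, 5 of 10 and 4 of 8, with 7 of 9 for melanocyte and 3 of 4 for Schwann markers. In HFSC replicate 1 was at least 2-fold above replicate 2 for 1 of 16, 0 of 12 and 0 of 8. The same held there for 3 of 9 endothelial and blood and 1 of 5 Schwann markers. Whether a collagen transcript came from epithelial cells or from dermal cells carried over in the sort was not tested, and in bulk libraries these cannot be told apart.

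**Figure D4:**
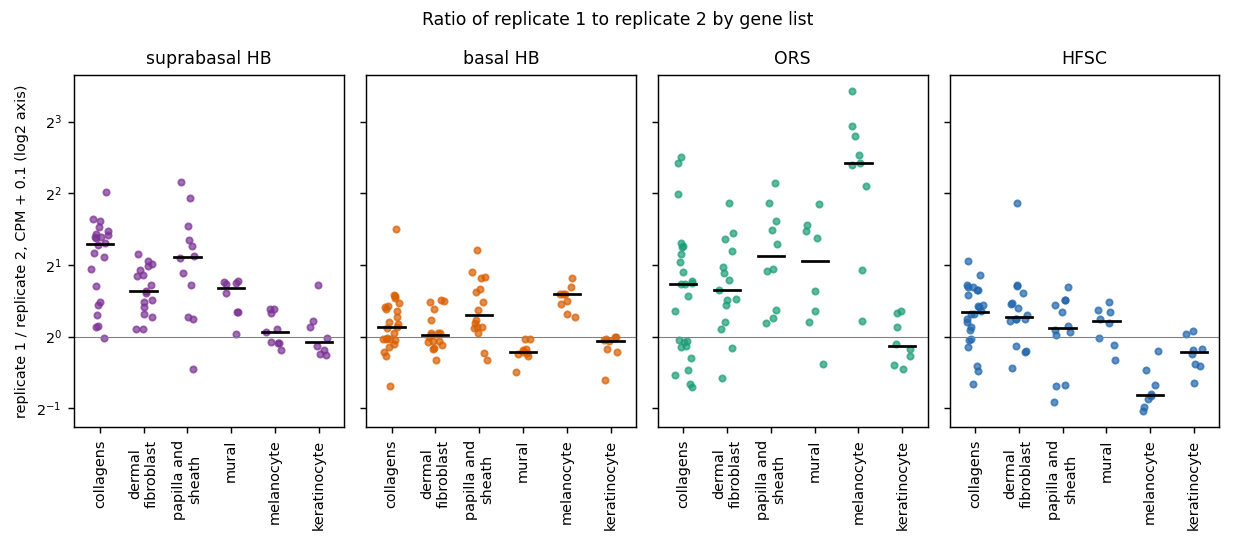
Ratio of replicate 1 to replicate 2 (vertical log2 axis, on CPM + 0.1) for the collagens shown and 5 marker lists, 1 panel per population. Each point is a gene at 1 CPM or more and each bar the median, and HFSC replicate 3 is not drawn. In suprabasal HB the collagen median is 2.455 and the keratinocyte median 0.949, while in basal HB both lie near 1.

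A measure chosen after the values were seen was the ratio of each collagen to Col1a2 in CPM, which would be constant for a gene that varied with type I collagen alone. Over the 9 libraries the highest ratio exceeded the lowest 1.39-fold for Col1a1, 2.34-fold for Col3a1 and 3.43-fold for Col6a2. The same figure was 25.7-fold for Col23a1, 48.7-fold for Col16a1, 56.1-fold for Col8a1, 63.5-fold for Col12a1 and 73.9-fold for Col6a4. Col16a1 had 0.0641 and 0.123 times the CPM of Col1a2 in suprabasal HB, 0.345 and 0.579 times in basal HB, 1.305 and 2.42 times in ORS, and 2.48, 3.12 and 1.70 times in HFSC. Col15a1 had 0.0472 and 0.0467 times in suprabasal HB, 0.228 and 0.2115 times in basal HB, 0.0609 and 0.0426 times in ORS, and 0.0483, 0.0466 and 0.0444 times in HFSC. Outside basal HB this ratio for Col15a1 was thus within 0.0426 to 0.0609, whereas its CPM ranged from 7.74 to 46.1. Col6a1 had 0.0737 and 0.0796 times in suprabasal HB, 0.266 and 0.274 times in basal HB, 0.0993 and 0.0670 times in ORS, and 0.116, 0.136 and 0.118 times in HFSC. The ratio shows unequal differences and not which of its genes differed.

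**Figure D5:**
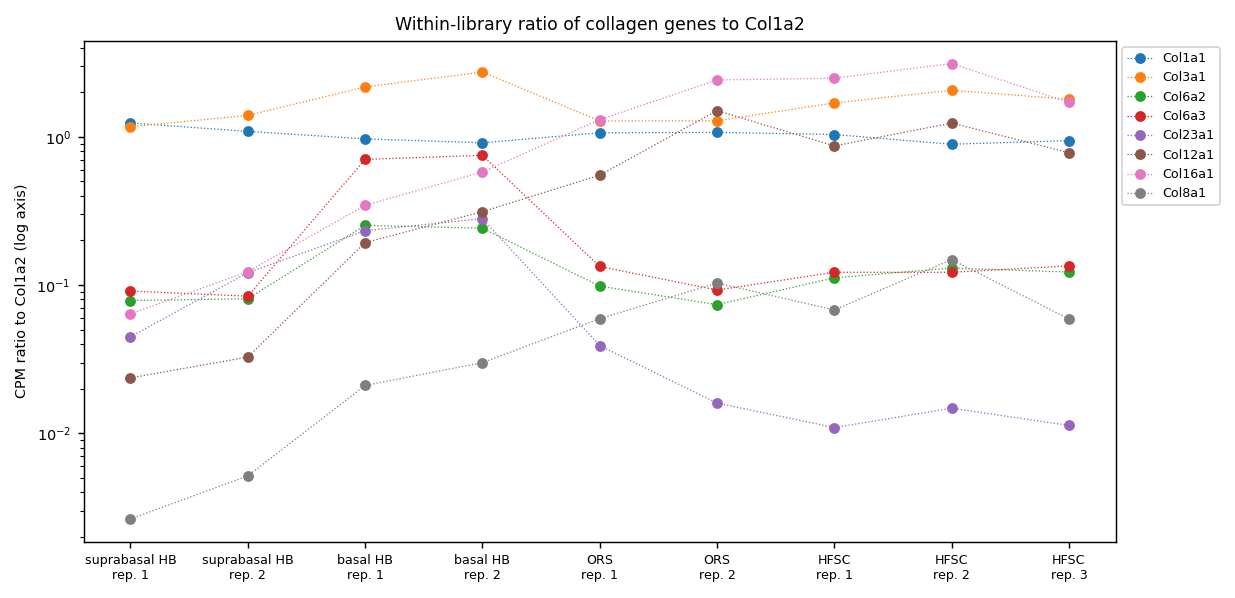
CPM of 8 collagens divided by that of Col1a2 (vertical log axis) in each of the 9 libraries (horizontal axis), with dotted lines only to guide the eye. Col1a1 stays within a 1.39-fold range, while Col16a1, Col12a1 and Col8a1 are lowest in suprabasal HB and Col23a1 and Col6a3 highest in basal HB.

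Enzymes and helpers of collagen maturation were listed as 32 genes, of which 31 were tested. In ORS against HFSC edgeR called 0 higher and 17 lower (54.8%, beside the 41.9% of all genes), with a median log2 fold change of -0.75. At an unadjusted p under 0.05 there were 0 higher and 20 lower, DESeq2 called 0 and 19, and limma on log2(TPM + 1) called 1 and 9. Means of these genes are given ± SD over libraries. P3h2, a prolyl 3-hydroxylase, averaged 6.34 ± 0.818 CPM in ORS and 31.3 ± 2.89 CPM in HFSC (n = 2 and 3, log2 fold change -2.30, SE 0.14, edgeR adjusted p = 2.65e-05). Pcolce2, an enhancer of procollagen C-proteinases, averaged 0.898 ± 0.401 CPM in ORS and 4.27 ± 0.390 CPM in HFSC (n = 2 and 3, log2 fold change -2.26, SE 0.36, edgeR adjusted p = 0.00143). Adamts3, a procollagen N-proteinase, averaged 1.41 ± 0.321 CPM in ORS and 5.09 ± 1.04 CPM in HFSC (n = 2 and 3, log2 fold change -1.85, SE 0.40, edgeR adjusted p = 0.00595). These 3 fell in ORS. Of 8 tested collagen receptors out of 10 listed, edgeR called 0 higher and 3 lower (37.5%, beside the 41.9% of all genes). At an unadjusted p under 0.05 there were 0 and 4, and DESeq2 called 0 and 4 and limma on log2(TPM + 1) 0 and 3. Itga11, the integrin α11 chain, averaged 1.51 ± 0.908 CPM in ORS and 4.18 ± 0.509 CPM in HFSC (n = 2 and 3, log2 fold change -1.47, SE 0.35, edgeR adjusted p = 0.00966). Ddr1, a collagen-binding receptor kinase, averaged 164 ± 23.1 CPM in ORS and 311 ± 41.9 CPM in HFSC (n = 2 and 3, log2 fold change -0.92, SE 0.14, edgeR adjusted p = 0.00103). Itgb1, the β1 chain shared by the collagen-binding integrins and itself a sort marker, averaged 500.4 ± 35.5 CPM in ORS and 846 ± 45.1 CPM in HFSC (n = 2 and 3, log2 fold change -0.76, SE 0.11, edgeR adjusted p = 0.000880). Its level may thus depend on the gates of the sort, which was not tested. Each of the 3 also fell in ORS, with an Itga11 estimate of -2.25 log2 units without ORS replicate 1 and -0.95 without ORS replicate 2.

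In basal HB against ORS 10 maturation genes were higher and 2 lower (38.7%, beside 30.5% of all genes), although the median over the list was -0.15. Colgalt2, a collagen galactosyltransferase, averaged 1.59 ± 0.0663 CPM in basal HB and 0.163 ± 0.0409 CPM in ORS (n = 2 and 2, log2 fold change 3.28, SE 0.35, edgeR adjusted p = 0.000293). P3h2, the prolyl 3-hydroxylase, averaged 53.2 ± 2.55 CPM in basal HB and 6.34 ± 0.818 CPM in ORS (n = 2 and 2, log2 fold change 3.07, SE 0.15, edgeR adjusted p = 3.47e-05). Adamts14, a procollagen N-proteinase, averaged 5.96 ± 0.136 CPM in basal HB and 0.854 ± 0.275 CPM in ORS (n = 2 and 2, log2 fold change 2.81, SE 0.53, edgeR adjusted p = 0.00415). These 3 rose in basal HB. Tll1, a procollagen C-proteinase of the BMP1 family, averaged 4.16 ± 0.00219 CPM in basal HB and 7.52 ± 1.97 CPM in ORS (n = 2 and 2, log2 fold change -0.85, SE 0.27, edgeR adjusted p = 0.0423). Colgalt1, the related galactosyltransferase, averaged 67.9 ± 3.23 CPM in basal HB and 97.5 ± 8.76 CPM in ORS (n = 2 and 2, log2 fold change -0.52, SE 0.10, edgeR adjusted p = 0.00400). Both fell. The call on Tll1 was lost in basal HB against ORS without suprabasal HB replicate 1 (adjusted p = 0.0537), suprabasal HB replicate 2 (adjusted p = 0.0674), basal HB replicate 1 (adjusted p = 0.171), basal HB replicate 2 (adjusted p = 0.157), ORS replicate 2 (adjusted p = 0.239) or HFSC replicate 2 (adjusted p = 0.0727). It was also lost with upper-quartile scaling (adjusted p = 0.0553) and on log2(TPM + 1) (adjusted p = 0.181). Of the 8 receptors 3 were higher and 1 lower (50%, beside 30.5% of all genes). Ddr2, a receptor kinase for fibrillar collagen, averaged 40.0 ± 5.09 CPM in basal HB and 9.07 ± 2.14 CPM in ORS (n = 2 and 2, log2 fold change 2.14, SE 0.37, edgeR adjusted p = 0.00265). Itga11, integrin α11, averaged 6.40 ± 0.578 CPM in basal HB and 1.51 ± 0.908 CPM in ORS (n = 2 and 2, log2 fold change 2.09, SE 0.37, edgeR adjusted p = 0.00311). Itga10, integrin α10, averaged 8.04 ± 0.863 CPM in basal HB and 5.11 ± 0.647 CPM in ORS (n = 2 and 2, log2 fold change 0.65, SE 0.20, edgeR adjusted p = 0.0348). Itga1, integrin α1, averaged 41.4 ± 7.07 CPM in basal HB and 107 ± 36.0 CPM in ORS (n = 2 and 2, log2 fold change -1.37, SE 0.24, edgeR adjusted p = 0.00276). The call on Itga10 was lost in basal HB against ORS without basal HB replicate 1 (adjusted p = 0.0878), basal HB replicate 2 (adjusted p = 0.207), ORS replicate 1 (adjusted p = 0.146) or ORS replicate 2 (adjusted p = 0.0544). On log2(TPM + 1) the calls on Itga10 (adjusted p = 0.118) and Ddr2 (adjusted p = 0.0647) were lost.

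In basal HB against HFSC 6 maturation genes were higher and 15 lower (67.7%, beside 48.9% of all genes), with a median of -0.545. With limma on log2(TPM + 1) the split was 7 and 8. Tmem38b, an ion channel of the endoplasmic reticulum needed for collagen processing, averaged 78.3 ± 4.98 CPM in basal HB and 19.2 ± 0.383 CPM in HFSC (n = 2 and 3, log2 fold change 2.03, SE 0.13, edgeR adjusted p = 9.77e-06). Adamts14, the N-proteinase, averaged 5.96 ± 0.136 CPM in basal HB and 1.495 ± 0.689 CPM in HFSC (n = 2 and 3, log2 fold change 1.98, SE 0.46, edgeR adjusted p = 0.00719). Colgalt2, the galactosyltransferase, averaged 1.59 ± 0.0663 CPM in basal HB and 0.414 ± 0.0446 CPM in HFSC (n = 2 and 3, log2 fold change 1.94, SE 0.30, edgeR adjusted p = 0.000900). These 3 rose in basal HB. Tll1, the C-proteinase, averaged 4.16 ± 0.00219 CPM in basal HB and 22.4 ± 6.04 CPM in HFSC (n = 2 and 3, log2 fold change -2.43, SE 0.27, edgeR adjusted p = 0.000131). Adamts3, the other N-proteinase, averaged 1.17 ± 0.585 CPM in basal HB and 5.09 ± 1.04 CPM in HFSC (n = 2 and 3, log2 fold change -2.12, SE 0.40, edgeR adjusted p = 0.00256). Pcolce2, the proteinase enhancer, averaged 1.57 ± 0.350 CPM in basal HB and 4.27 ± 0.390 CPM in HFSC (n = 2 and 3, log2 fold change -1.44, SE 0.35, edgeR adjusted p = 0.00839). These 3 fell. The call on Pcolce2 was lost in basal HB against HFSC without basal HB replicate 2 (adjusted p = 0.0741). On log2(TPM + 1) the call on Pcolce2 was lost as well (adjusted p = 0.0942).

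Among the 8 receptors in basal HB against HFSC 2 were higher and 3 lower (62.5%, beside 48.9% of all genes). Ddr2, the receptor kinase, averaged 40.0 ± 5.09 CPM in basal HB and 16.8 ± 4.14 CPM in HFSC (n = 2 and 3, log2 fold change 1.25, SE 0.32, edgeR adjusted p = 0.0116). Itga10, integrin α10, averaged 8.04 ± 0.863 CPM in basal HB and 4.13 ± 0.537 CPM in HFSC (n = 2 and 3, log2 fold change 0.96, SE 0.18, edgeR adjusted p = 0.00245). Both rose in basal HB. Itga1, integrin α1, averaged 41.4 ± 7.07 CPM in basal HB and 129 ± 17.8 CPM in HFSC (n = 2 and 3, log2 fold change -1.64, SE 0.23, edgeR adjusted p = 0.000436). Itgb1, integrin β1, itself a sort marker, averaged 535 ± 46.9 CPM in basal HB and 846 ± 45.1 CPM in HFSC (n = 2 and 3, log2 fold change -0.66, SE 0.11, edgeR adjusted p = 0.00123). Ddr1, the related kinase, averaged 206 ± 13.9 CPM in basal HB and 311 ± 41.9 CPM in HFSC (n = 2 and 3, log2 fold change -0.59, SE 0.14, edgeR adjusted p = 0.00702). These 3 fell. The call on Ddr2 was lost in basal HB against HFSC without basal HB replicate 1 (adjusted p = 0.0796). The call on Ddr1 was lost in basal HB against HFSC without basal HB replicate 1 (adjusted p = 0.0706). On log2(TPM + 1) adjusted p was 0.461 for Ddr2, 0.341 for Ddr1 and 0.0617 for Itgb1. The Ddr1 estimate was -0.35 log2 units without HFSC replicate 1.

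In suprabasal HB against basal HB 5 maturation genes were higher and 9 lower (45.2%, beside 27.9% of all genes), with a median of -0.49. The split was 3 and 11 with DESeq2-type size factors, 3 and 12 with upper-quartile scaling and 1 and 16 on log2(TPM + 1). Pcolce2, the proteinase enhancer, averaged 11.1 ± 4.36 CPM in suprabasal HB and 1.57 ± 0.350 CPM in basal HB (n = 2 and 2, log2 fold change 2.82, SE 0.38, edgeR adjusted p = 0.000970). Loxl2, a collagen-crosslinking oxidase, averaged 51.9 ± 14.5 CPM in suprabasal HB and 33.5 ± 0.833 CPM in basal HB (n = 2 and 2, log2 fold change 0.63, SE 0.20, edgeR adjusted p = 0.0478). Ppib, a prolyl isomerase of the endoplasmic reticulum, averaged 257 ± 3.07 CPM in suprabasal HB and 188 ± 16.4 CPM in basal HB (n = 2 and 2, log2 fold change 0.45, SE 0.10, edgeR adjusted p = 0.0108). These 3 rose in suprabasal HB. The call on Loxl2 was lost in suprabasal HB against basal HB without suprabasal HB replicate 1 (adjusted p = 0.281), basal HB replicate 1 (adjusted p = 0.170), basal HB replicate 2 (adjusted p = 0.179), HFSC replicate 1 (adjusted p = 0.0908), HFSC replicate 2 (adjusted p = 0.0851) or HFSC replicate 3 (adjusted p = 0.0919). The call on Ppib was lost in suprabasal HB against basal HB without suprabasal HB replicate 2 (adjusted p = 0.0586) or basal HB replicate 1 (adjusted p = 0.110). The Loxl2 call was also lost with DESeq2-type size factors (adjusted p = 0.0636), upper-quartile scaling (adjusted p = 0.0896), the fit on both populations alone (adjusted p = 0.0541) and log2(TPM + 1) (adjusted p = 0.3855), and the Ppib call on log2(TPM + 1) (adjusted p = 0.135). Colgalt2, the galactosyltransferase, averaged 0.212 ± 0.0467 CPM in suprabasal HB and 1.59 ± 0.0663 CPM in basal HB (n = 2 and 2, log2 fold change -2.88, SE 0.35, edgeR adjusted p = 0.000620). Adamts14, the N-proteinase, averaged 1.29 ± 0.784 CPM in suprabasal HB and 5.96 ± 0.136 CPM in basal HB (n = 2 and 2, log2 fold change -2.19, SE 0.52, edgeR adjusted p = 0.0145). Tll1, the C-proteinase, averaged 0.965 ± 0.0590 CPM in suprabasal HB and 4.16 ± 0.00219 CPM in basal HB (n = 2 and 2, log2 fold change -2.11, SE 0.30, edgeR adjusted p = 0.00137). These 3 fell. The call on Adamts14 was lost in suprabasal HB against basal HB without suprabasal HB replicate 2 (adjusted p = 0.0770), basal HB replicate 1 (adjusted p = 0.0690) or basal HB replicate 2 (adjusted p = 0.0594).

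Receptors gave 0 higher and 6 of 8 lower in suprabasal HB against basal HB by edgeR (75%, beside 27.9% of all genes), with a median of -1.37. At an unadjusted p under 0.05 there were 0 higher and 7 lower, and DESeq2 and limma also called 0 higher. Itga1, integrin α1, averaged 3.12 ± 0.578 CPM in suprabasal HB and 41.4 ± 7.07 CPM in basal HB (n = 2 and 2, log2 fold change -3.73, SE 0.27, edgeR adjusted p = 6.09e-05). Ddr2, the receptor kinase for fibrillar collagen, averaged 7.30 ± 3.94 CPM in suprabasal HB and 40.0 ± 5.09 CPM in basal HB (n = 2 and 2, log2 fold change -2.45, SE 0.38, edgeR adjusted p = 0.00191). Itga10, integrin α10, averaged 2.50 ± 0.1004 CPM in suprabasal HB and 8.04 ± 0.863 CPM in basal HB (n = 2 and 2, log2 fold change -1.68, SE 0.21, edgeR adjusted p = 0.000615). Each of the 3 fell in suprabasal HB, and none of these calls was lost under an alternative. Over the 4 comparisons 25 of 35 named maturation and receptor calls were kept in every alternative, and none reversed.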

How the data were processed

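RNA of 9 sorted libraries was sequenced by the authors, and the deposited per-library files hold expected counts and TPM per gene. Per the submitters' processing notes the tools were Bowtie2 2.2.9 and RSEM 1.2.30 on mm10. The strand setting of the counting is not given in the sources used here. The authors' deposited TPM (values scaled for transcript length and library size) served for levels compared between genes. A TPM table of the whole series, with 9 per-sample columns, was not used.

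The counts were rounded, then tested in R 4.3.3 with edgeR 4.0.16 (filterByExpr with its default settings, TMM factors of 0.9 to 1.127, quasi-likelihood fit over all 4 populations without covariates, 5 residual degrees of freedom), with p-values adjusted over 20491 genes. Total counts were 25098237 to 88596741 per library. A count of 3 was taken as the floor of detection, which covers counting error only. Alternatives were other scalings, no low-count filter, a fit on the 2 populations compared, limma 3.58.1 on log2(TPM + 1) and log2(TPM + 0.1), DESeq2 1.42.0, a replicate block and each library left out. Code for the tests was tested on simulated data.

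The members and lists were chosen with earlier results of these data known. Collagens were given in full when 1 population averaged at least 5 CPM, the others by range or counts. From the maturation and receptor lists, up to 3 called genes with the largest log2 fold change in each direction were named per comparison. All 34 members matched GENCODE M21, whose exons also overlap other genes for Col3a1, Col5a1, Col10a1 and Col22a1, so their counts are uncertain to that extent.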

Additional observations from a re-analysis of the deposited data

How the results depend on the processing

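With limma on log2(TPM + 0.1), 7 collagens were called in ORS against HFSC, where edgeR called 11. Maturation genes called in that comparison numbered 10 on log2(TPM + 1) and 11 on log2(TPM + 0.1), against 17. On both TPM scales 2 receptors were called in basal HB against ORS (edgeR 4) and 3 in basal HB against HFSC (edgeR 5). DESeq2 called 21 maturation genes in suprabasal HB against basal HB, where edgeR called 14. These scales shifted the median log2 fold change of all genes relative to edgeR by 0.175 and 0.272 in ORS against HFSC, by 0.218 and 0.342 where basal HB was set against HFSC, and by -0.158 and -0.247 in suprabasal HB against basal HB, and upper-quartile scaling by 0.135 in basal HB against HFSC. The cause of these differences was not tested.

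Leaving out each library in turn gave 5 to 14 collagens called in ORS against HFSC, 11 to 24 in basal HB against ORS, 11 to 24 in basal HB against HFSC and 9 to 18 in suprabasal HB against basal HB. Over all genes it gave 3425 to 6252 in basal HB against ORS, 6422 to 10152 in basal HB against HFSC and 2729 to 5870 in suprabasal HB against basal HB. Called receptors numbered 3 to 5 in ORS against HFSC, those in basal HB against HFSC 3 to 6, and maturation counts from 7 to 16 in suprabasal HB against basal HB. A population left with 1 library is assumed to vary like the others. At a 3-fold limit, 5 collagens had a wide replicate spread in at least 1 population, where the 2-fold limit gave 17.

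The deviations of same-numbered replicates from the population means correlated by 0.245 between suprabasal and basal HB, 0.149 between basal HB and ORS, 0.112 between suprabasal HB and HFSC, 0.098 between suprabasal HB and ORS, 0.068 between basal HB and HFSC and -0.143 between ORS and HFSC. Not every pair exceeded 0.1, and the labels tie no number to an animal or day, so the numbers were not taken as pairs. With a replicate block, 11 collagens were called in ORS against HFSC, 21 in basal HB against ORS, 20 in basal HB against HFSC and 20 in suprabasal HB against basal HB, 1 of these higher. The block ended 7 calls: Col9a3 (adjusted p = 0.161), Col12a1 (0.0760) and Col6a4 (0.0508) in ORS against HFSC, Col6a4 (0.0505) in basal HB against ORS, and Col14a1 (0.0656), Col20a1 (0.0542) and Col24a1 (0.0968) in basal HB against HFSC. HFSC libraries are the shallowest, so their low counts are the least precise.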
